A study of Rattus norvegicus with 4 samples.

Results

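The miR-34 family was followed through 4 small RNA libraries of rat costochondral growth plate cartilage. Its members were chosen by name, as every product numbered miR-34 with any letter or arm suffix, which gave 6 of the 740 miRNA names in the deposited table. They are the 5p and 3p arms of the 3 precursors miR-34a, miR-34b and miR-34c, listed with the prefix rno- for rat (rno-miR-34a-5p, rno-miR-34c-5p and so on), which is left out from here on. The libraries came from resting zone chondrocytes (RC-cells), the matrix vesicles they produced (RC-MVs), growth zone chondrocytes (GC-cells), which are prehypertrophic and upper hypertrophic cells, and their matrix vesicles (GC-MVs). Chondrocytes were isolated from male Sprague Dawley rats, grown to confluence in medium with ascorbic acid and fetal bovine serum that had been centrifuged to deplete its exosomes, and used at passage 4 in all 4 groups, with no treatment. MVs are small membrane-bound vesicles that stay in the extracellular matrix, and they were collected by trypsin digestion of the cell layer and differential centrifugation. Each group was represented by 1 library, so that no difference had a replicate check and no p-value was computed. All intervals are at the 95% level and cover counting error only, with each read taken as a separate molecule. Reads that are PCR copies could not be told from separate molecules, so the intervals may be too narrow.

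The miR-34 miRNAs are known as transcriptional targets of the tumour suppressor p53. Their 5p arms repress mRNAs of cell cycle and survival proteins, and rising levels are associated with cell cycle arrest and senescence in many cell types, cultured chondrocytes among them. The gene of miR-34a stands alone, whereas miR-34b and miR-34c are made from one shared primary transcript, and the related miR-449 genes encode miRNAs with the same seed, the stretch that pairs with target mRNAs. In each precursor the hairpin is cut into a duplex, of which one arm usually persists as the guide and the other is mostly lost.

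The sequences show what the products have in common and how far reads of different members can be told apart. They were taken from RefSeq on the GRCr8 assembly, which held all 6 members, while the reads had been aligned by the authors to Rnor_6.0. Each is written 5′ to 3′ with the seed, bases 2 to 8, in capitals. The 5p arms come first, followed by the related miR-449 5p arms and the 3p arms of the family.
miR-34a-5p: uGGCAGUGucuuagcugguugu
miR-34b-5p: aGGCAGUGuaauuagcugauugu
miR-34c-5p: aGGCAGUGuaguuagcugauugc
miR-449a-5p: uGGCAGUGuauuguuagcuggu
miR-449c-5p: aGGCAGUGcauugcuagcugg
miR-34a-3p: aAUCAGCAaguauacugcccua
miR-34b-3p: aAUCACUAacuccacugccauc
miR-34c-3p: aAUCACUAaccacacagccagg

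On GRCr8, miR-34a-5p lies at chr5:165815971-165815992 on the plus strand. The arm miR-34b-5p lies at chr8:60306657-60306679 and miR-34c-5p at chr8:60306133-60306155, both on the minus strand, and their hairpins are separated by 441 bases. Among the mature rat miRNAs of the sequence table, 5 carried the seed GGCAGUG, and these were the 3 miR-34 5p arms and the 2 miR-449 5p arms. Counted from the 5′ end, miR-34b-5p and miR-34c-5p had the same base at 21 of 23 positions and differed by A11G and U23C, so that the authors' counting could have split reads of these products that end early or carry a sequencing error. The 3p arms of miR-34b and miR-34c share the seed AUCACUA and differed at 5 of 22 positions.

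The libraries held 6517329 miRNA reads in RC-cells against 1108821 in RC-MVs, with 7414467 in GC-cells and 982543 in GC-MVs, so that the vesicles were covered less deeply than the cells. In the cells 3 reads stood for at most 4.60e-05% of miRNA reads, and in the vesicles for at most 0.000305%. Levels are percents of these totals. Of 6 chondrocyte marker products, both arms of miR-140 and miR-455 had reads in all 4 libraries, and their summed level lay between 0.526% and 1.00% of miRNA reads, while both arms of miR-675 had 0 or 1 read. Of 6 blood miRNAs, the summed level was 0.00124% in RC-cells and 0.0885% in RC-MVs, with 0.00121% in GC-cells and 0.190% in GC-MVs. Only miR-223-3p in GC-cells was at 0, and each blood miRNA with reads in both libraries was at least 2-fold higher in the vesicles of both zones, 6 of 6 in RC-MVs, against 33.6% of all miRNAs, and 5 of 5 in GC-MVs, against 32.1%. The part of blood RNA in the ratios of the miR-34 products was not tested. In bulk libraries like these, fewer cells or vesicles of a kind and less RNA in each cannot be told apart.

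Taken as a sum, the 6 products held 0.198% of miRNA reads in RC-cells (12905 reads) against 0.0394% in RC-MVs (437 reads), with 0.174% in GC-cells (12901 reads) and 0.0547% in GC-MVs (537 reads). The family was therefore a minor part of the miRNA pool of these chondrocytes, and it was lower in the vesicles than in the cells of both zones. In the cells 5p arms supplied nearly all of these reads, since the 3p arms together made up 4.06% of the family in RC-cells and 3.26% in GC-cells. In the vesicles the 3p arms made up 19.7% of the family in RC-MVs (Wilson interval from 16.2% to 23.7%) and 11.5% in GC-MVs (9.11% to 14.5%).

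The most abundant member was miR-34c-5p, with 7441 reads in RC-cells (0.114% of miRNA reads) against 203 in RC-MVs (0.0183%), with 7139 in GC-cells (0.0963%) and 273 in GC-MVs (0.0278%). It ranked 58th of 496 detected miRNAs in RC-cells and 57th of 501 in GC-cells, but 121st of 431 in RC-MVs. Its cluster partner miR-34b-5p had 3209 reads in RC-cells (0.0492%) against 100 in RC-MVs (0.00902%), with 3445 in GC-cells (0.0465%) and 129 in GC-MVs (0.0131%). The product of the separate gene, miR-34a-5p, which is the member most often studied as a p53 target, had 1731 reads in RC-cells (0.0266%) against 48 in RC-MVs (0.00433%), with 1897 in GC-cells (0.0256%) and 73 in GC-MVs (0.00743%). All 3 guide arms were high in both cell libraries and low in both vesicle libraries, and the order miR-34c-5p, miR-34b-5p, miR-34a-5p was the same in all 4 libraries, with intervals that did not overlap.

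**Figure D1:**
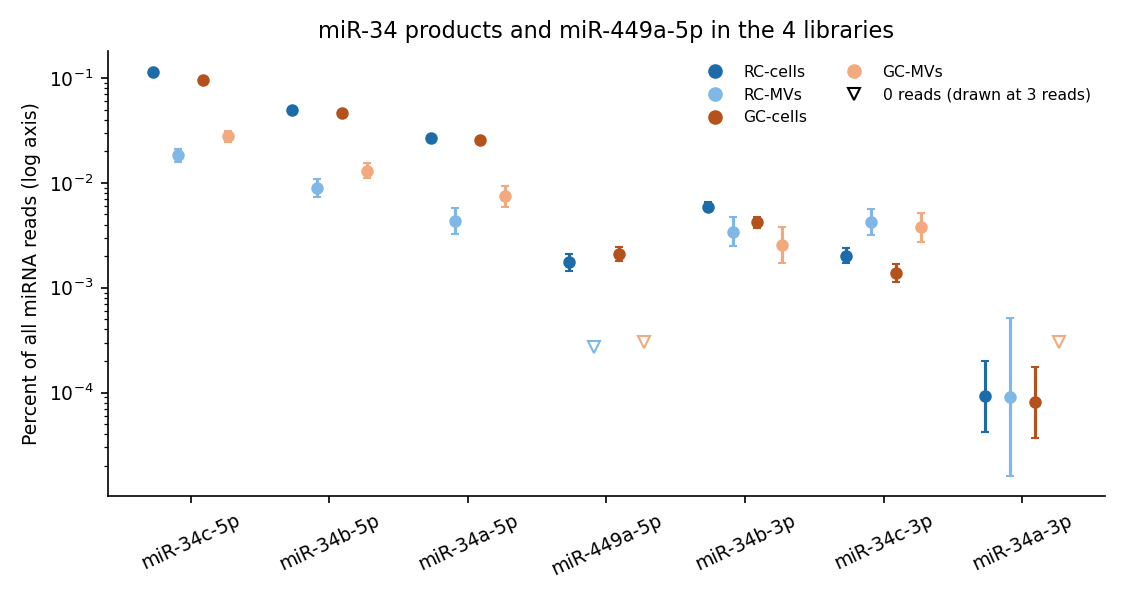
Percent of all miRNA reads (log axis) of the 6 miR-34 products and miR-449a-5p in the 4 libraries, with Wilson intervals for counting error as bars; open triangles stand for 0 reads and are drawn at the share of 3 reads. The 5p arms of miR-34 lie higher in the cells than in the vesicles, whereas miR-34c-3p lies lower in the cells.

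The proportions between the guide arms, which need no scaling between libraries, were close to each other in cells and vesicles. Reads of miR-34c-5p exceeded those of miR-34a-5p 4.30-fold in RC-cells (interval from 4.08 to 4.53) and 4.23-fold in RC-MVs (3.07 to 5.92). In the growth zone the same ratio was 3.76 in GC-cells (3.58 to 3.96) and 3.74 in GC-MVs (2.88 to 4.91). The intervals of vesicles and cells overlapped in both zones, and a change of these proportions within the wide intervals of the vesicles was not detectable. Against miR-34b-5p, miR-34c-5p was 2.32-fold higher in RC-cells and 2.03-fold in RC-MVs, with 2.07-fold in GC-cells and 2.12-fold in GC-MVs. Between the cells, the miR-34c-5p to miR-34a-5p ratio was higher in the resting zone, with intervals that did not overlap.

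The passenger arms were rarer. In the cells miR-34b-3p was the most abundant of them, with 386 reads in RC-cells (0.00592%) against 38 in RC-MVs (0.00343%), with 311 in GC-cells (0.00419%) and 25 in GC-MVs (0.00254%). The arm miR-34c-3p had 132 reads in RC-cells (0.00203%) against 47 in RC-MVs (0.00424%), with 103 in GC-cells (0.00139%) and 37 in GC-MVs (0.00377%), and was thus the only member with a higher share in the vesicles than in the cells of both zones. There were 6 reads of miR-34a-3p in RC-cells and 1 in RC-MVs, with 6 in GC-cells and 0 in GC-MVs. A count of 0 in GC-MVs allows a share of up to 0.000305%, which is above the 8.09e-05% measured in GC-cells, so that no difference of miR-34a-3p was detectable at this depth.

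To see how the family was divided between the vesicles and the cells that produced them, the percents of RC-MVs were set against those of RC-cells. All 3 guide arms were lower in RC-MVs, miR-34c-5p 6.24-fold (interval from 5.42 to 7.21), miR-34a-5p 6.14-fold (4.61 to 8.35) and miR-34b-5p 5.46-fold (4.47 to 6.73). Among all 414 miRNAs with reads in both libraries, 30.4% were at least 2-fold lower in RC-MVs and 64.0% differed by at least 2-fold in either direction. Of 293 miRNAs that reached 10 reads in each of these libraries, 22 had a lower vesicle to cell ratio than miR-34c-5p, 26 than miR-34a-5p and 31 than miR-34b-5p. In contrast, miR-34b-3p was 1.73-fold lower (1.24 to 2.48) and miR-34c-3p was 2.09-fold higher in RC-MVs (1.47 to 2.94). The rise of miR-34c-3p was at the edge of the 2-fold limit, as it was 1.97-fold with edgeR's TMM normalization and 1.81-fold with a total that did not hold the abundant miR-143-3p, miR-22-3p and miR-21-5p. For miR-34a-3p the ratio was 0.980 with an interval from 0.0213 to 8.07, which shows no direction.

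The growth zone gave the same directions, with smaller folds for the guide arms. The guide arms were lower in GC-MVs than in GC-cells by 3.47-fold for miR-34c-5p (3.07 to 3.92), 3.54-fold for miR-34b-5p (2.97 to 4.25) and 3.44-fold for miR-34a-5p (2.73 to 4.41). Here 25.2% of the 417 miRNAs with reads in both libraries were at least 2-fold lower in GC-MVs, and 57.3% differed in either direction. The arm miR-34b-3p was 1.65-fold lower (1.10 to 2.59) and miR-34c-3p was 2.71-fold higher in GC-MVs (1.81 to 3.98). In both zones, therefore, the guide arms of 3 precursors from 2 chromosomes had nearly equal ratios, and the 3p arm of miR-34c lay on the other side of 1.

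**Figure D2:**
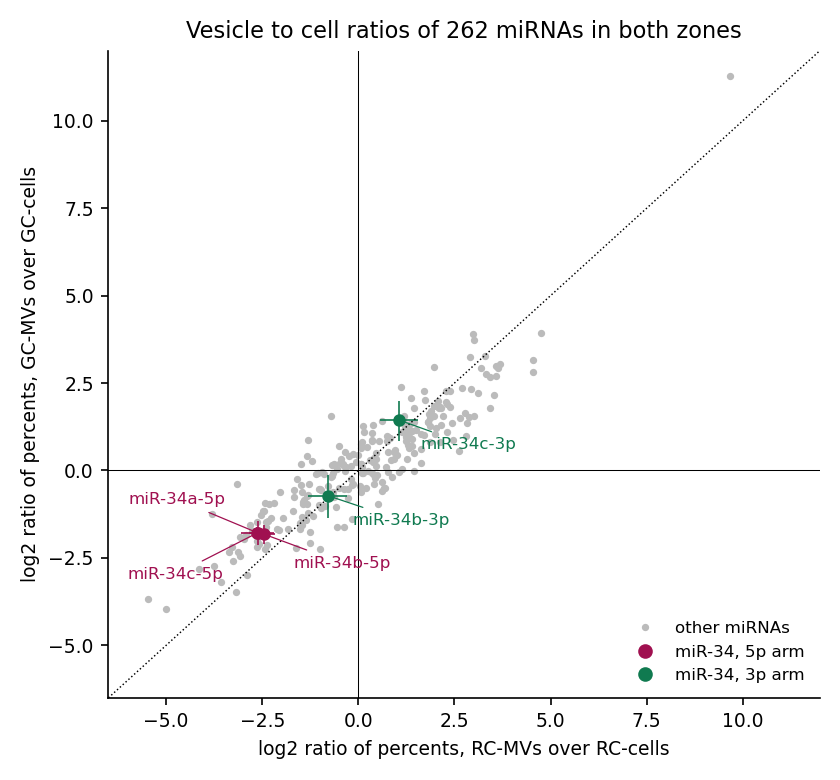
The log2 ratio of percents of RC-MVs over RC-cells (x axis) and of GC-MVs over GC-cells (y axis) for the 262 miRNAs that reached 10 reads in each of the 4 libraries; bars on the miR-34 products are Clopper-Pearson intervals for counting error and the dotted line marks equal ratios. The 3 guide arms fall together at low ratios in both zones, above the dotted line, while miR-34c-3p has ratios above 0 on both axes.

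Because all 3 guide arms lay at ratios closer to 1 in the growth zone, the vesicle to cell ratios of the zones were compared. The ratio in the growth zone divided by that in the resting zone was 1.80 for miR-34c-5p (interval from 1.50 to 2.16), 1.78 for miR-34a-5p (1.23 to 2.58) and 1.54 for miR-34b-5p (1.18 to 2.01). Over the 262 miRNAs that reached 10 reads in each library the median was 1.00, the 25th percentile 0.689 and the 75th percentile 1.55, so that miR-34c-5p and miR-34a-5p lay above the upper quartile and miR-34b-5p just under it. For the 3p arms the value was 1.05 for miR-34b-3p (0.619 to 1.77) and 1.30 for miR-34c-3p (0.784 to 2.14), and both intervals included 1. A difference between zones could not be tested with 1 library of each kind.

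Between RC-cells and GC-cells, 0 of the 6 products differed by 2-fold, while 19.4% of all 474 miRNAs with reads in both libraries did (13.7% higher and 5.70% lower in RC-cells). The percents in RC-cells over those in GC-cells were 1.19 for miR-34c-5p (1.15 to 1.23), 1.06 for miR-34b-5p (1.01 to 1.11) and 1.04 for miR-34a-5p (0.972 to 1.11), but these directions turned with the scaling, as the ratios were 0.940, 0.840 and 0.823 with TMM normalization. TMM normalization, DESeq2 size factors and the total without the abundant miRNAs moved the log2 ratio of every miRNA alike, by -0.32 to -0.36 between the cells and by -0.20 to -0.63 between the vesicles. The 3p arms were 1.41-fold (1.21 to 1.64) and 1.46-fold higher (1.12 to 1.91) in RC-cells for miR-34b and miR-34c, but with TMM normalization they were 1.12 and 1.16, and the counting intervals, moved by the same factor, then include 1. Between the vesicles, 39.3% of 397 miRNAs differed by 2-fold (24.7% higher and 14.6% lower in RC-MVs), and 0 of the 5 members with reads in both did. The percents in RC-MVs over those in GC-MVs were 0.659 for miR-34c-5p (0.547 to 0.793), 0.687 for miR-34b-5p (0.524 to 0.899) and 0.583 for miR-34a-5p (0.396 to 0.850). All 3 passed the 2-fold limit without the same abundant miRNAs in the total, at 0.426, 0.444 and 0.376, and miR-34a-5p alone did with DESeq2 size factors, at 0.490, where 41.1% and 38.5% of all miRNAs differed by 2-fold under these scalings. The 3p arms had ratios of 1.35 for miR-34b-3p (0.792 to 2.33) and 1.13 for miR-34c-3p (0.716 to 1.78), with intervals that included 1.

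The balance of the arms within a precursor was compared next, since both arms come from one library and their ratio does not depend on scaling. For miR-34c, 5p reads outnumbered 3p reads 56.4-fold in RC-cells (47.5 to 67.5) and 4.32-fold in RC-MVs (3.13 to 6.07). The same ratio was 69.3 in GC-cells (57.1 to 85.0) and 7.38 in GC-MVs (5.22 to 10.7). The 3p arm thus made up 1.74% of the reads of miR-34c in RC-cells and 18.8% in RC-MVs, with 1.42% in GC-cells and 11.9% in GC-MVs. The ratio of 5p to 3p reads was 13.1 times as high in RC-cells as in RC-MVs (9.10 to 18.7) and 9.39 times as high in GC-cells as in GC-MVs (6.33 to 13.9).

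For miR-34b the change had the same direction and was smaller. Its 5p to 3p ratio was 8.31 in RC-cells (7.48 to 9.26) and 2.63 in RC-MVs (1.79 to 3.93), with 11.1 in GC-cells (9.86 to 12.5) and 5.16 in GC-MVs (3.34 to 8.27). The cells exceeded the vesicles by 3.16 times in the resting zone (2.14 to 4.66) and by 2.15 times in the growth zone (1.38 to 3.35). In the cells miR-34b-3p outnumbered miR-34c-3p 2.92-fold in RC-cells and 3.02-fold in GC-cells. In the vesicles it did not, with ratios of 0.809 in RC-MVs (0.513 to 1.27) and 0.676 in GC-MVs (0.390 to 1.15). For miR-34a the ratio was 288.5 in RC-cells (132 to 787) and 316 in GC-cells (145 to 863), and with 1 and 0 reads of the 3p arm a change in the vesicles was not measurable.

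**Figure D3:**
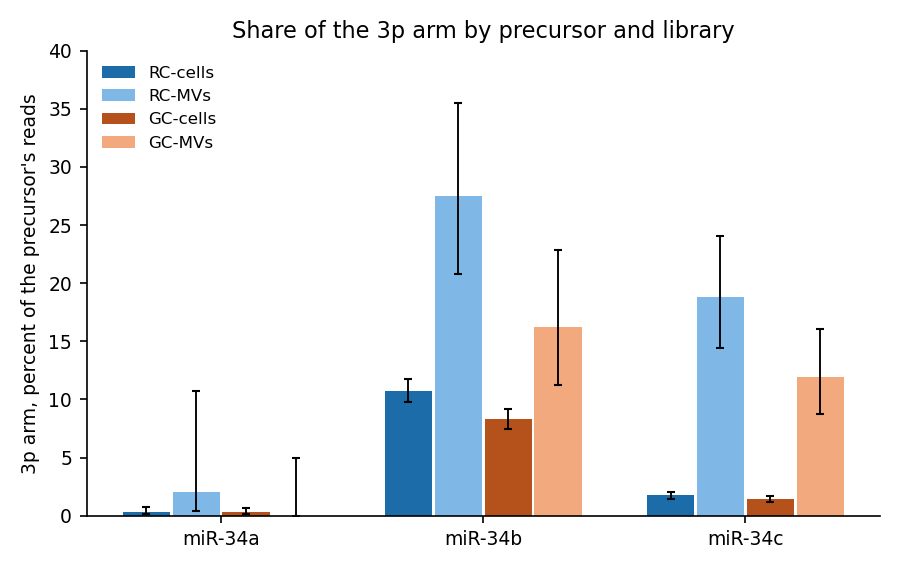
Percent of the reads of each precursor that came from its 3p arm in the 4 libraries, with Wilson intervals for counting error as bars. The share of the 3p arm of miR-34c rises from 1.74% in RC-cells to 18.8% in RC-MVs and from 1.42% in GC-cells to 11.9% in GC-MVs.

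The same change was then measured in the other precursors. With the minor arm defined as the one with fewer reads in both cell libraries together, 90 precursors had at least 10 reads of both arms in RC-MVs and RC-cells, the minor arm gained in the vesicles for 56 of them, and the median log2 gain was 0.80. The gain of miR-34c was the 10th largest of the 90 with a log2 value of 3.71, and that of miR-34b the 29th with 1.66. In the growth zone the median gain was 0.65 over 78 precursors, of which miR-34c had the 3rd largest with 3.23 and miR-34b the 30th with 1.10. The read minimum in the vesicles can favour minor arms that are high there. When 100 reads of each arm in both cell libraries were required instead, with 0.5 added to each count because a vesicle count could then be 0, an alternative added after the data were seen, the gain of miR-34c ranked 6th of 67 for RC-MVs and 2nd of 67 for GC-MVs, and that of miR-34b 18th and 24th. With both changes the median log2 gain was 0.32 for RC-MVs and 0.36 for GC-MVs, and the minor arm gained in 38 and 39 of the 67 precursors.

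**Figure D4:**
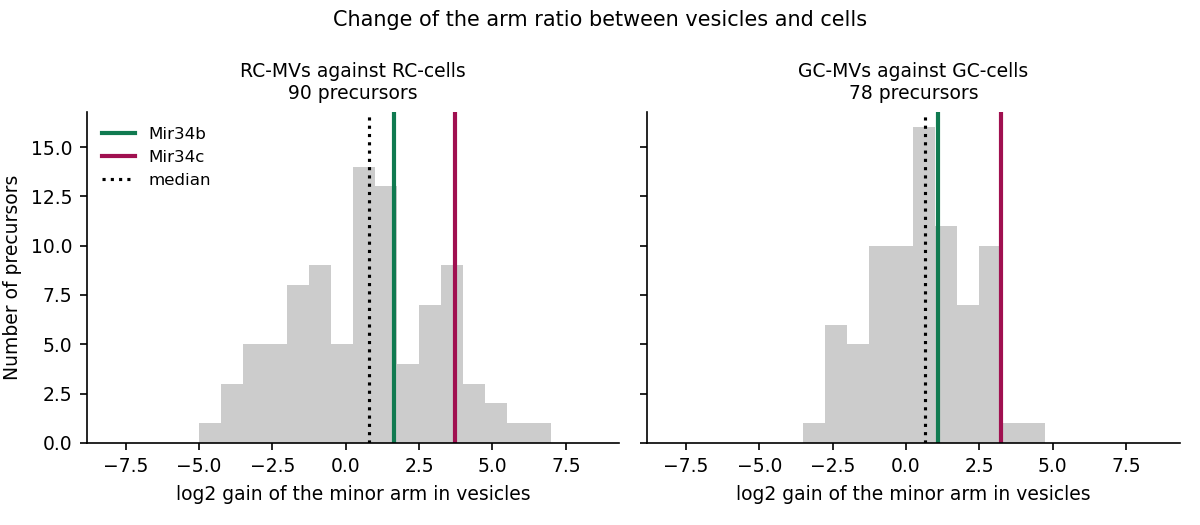
Number of precursors by the log2 gain of the minor arm in RC-MVs over RC-cells (left, 90 precursors) and GC-MVs over GC-cells (right, 78 precursors), with miR-34b, miR-34c and the median marked as lines. The gain of miR-34c is 3.71 in RC-MVs and 3.23 in GC-MVs, to the right of most other precursors.

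Base composition moved with the vesicle to cell ratios. Across 265 miRNAs with a matched sequence and at least 10 reads in both libraries, the percent of G and C had a Spearman rho of 0.56 (Pearson r of 0.54) with the log2 ratio of RC-MVs to RC-cells, and across 251 miRNAs a rho of 0.51 (r of 0.48) in the growth zone, where all points share the same libraries. The percent of G and C was 50.0 in miR-34a-5p, 39.1 in miR-34b-5p, 47.8 in miR-34c-5p, 45.5 in miR-34b-3p and 50.0 in miR-34c-3p. The arms miR-34a-5p and miR-34c-3p thus had equal values and lay on opposite sides of a ratio of 1, while the 3 guide arms spanned 39.1 to 50.0 with nearly equal ratios. The part of base composition in these ratios was not tested.

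The miRNAs of like pattern were sought among 261 others with at least 10 reads in every library, by the Euclidean distance between log2 percents over the 4 libraries, each centred on its own mean. The nearest to miR-34c-5p were miR-34b-5p, at a distance of 0.147, and miR-34a-5p, at 0.186, followed by miR-499-5p at 0.224, miR-27a-3p at 0.241 and let-7g-5p at 0.282, against a median distance of 2.65. For miR-34a-5p the nearest were miR-34b-5p at 0.181 and miR-34c-5p at 0.186, followed by let-7g-5p, miR-30c-5p and miR-499-5p at 0.339 to 0.378. For miR-34b-5p the nearest were again both other guide arms, at 0.147 and 0.181, before miR-224-5p, miR-499-5p and let-7g-5p. Each guide arm was therefore closer to both others than to any other miRNA over these 4 libraries, whereas miR-34b-3p and miR-34c-3p ranked 72nd and 182nd from miR-34c-5p. This order describes 4 libraries and counts close to the read minimum carry an error of their own, as in miR-499-5p with 17 and 19 reads in the vesicles.

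The miR-449 genes, which are expressed with miR-34b and miR-34c in multiciliated epithelia, carry the same seed. There were 114 reads of miR-449a-5p in RC-cells (0.00175%) and 0 in RC-MVs, with 155 in GC-cells (0.00209%) and 0 in GC-MVs. It was present in both cell libraries and not detected in either vesicle library. Set against 3 reads in the vesicles, it was at least 6.47-fold lower in RC-MVs and at least 6.85-fold lower in GC-MVs, while the exact 95% limits of these ratios, which allow for counting error, were 5.17-fold and 5.50-fold lower. The first limit lies within the interval of miR-34a-5p in the resting zone and the second is above that of miR-34a-5p in the growth zone. In the cells miR-34a-5p exceeded miR-449a-5p 15.2-fold in RC-cells (12.6 to 18.5) and 12.2-fold in GC-cells (10.4 to 14.5). No read of miR-449c-5p was counted in any library, and both 3p arms had at most 1. All 5 products with the seed GGCAGUG together held 0.192% of miRNA reads in RC-cells against 0.0317% in RC-MVs, with 0.170% in GC-cells and 0.0483% in GC-MVs.

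Other miRNAs that are linked to p53, which raises the transcription or the processing of their precursors, were read beside the family. Of 9 such miRNAs 8 were matched by name in the table and 7 had reads in every library. In RC-MVs against RC-cells 4 of the 7 were at least 2-fold lower and 0 higher, against 30.4% lower and 33.6% higher among all miRNAs, and their median log2 ratio was -1.34, against 0.08 over all. They were miR-16-5p, 8.87-fold lower (7.04 to 11.3), miR-194-5p, 4.58-fold lower (2.45 to 9.65), miR-107-3p, 2.54-fold lower (1.84 to 3.59), and miR-200c-3p, with only 2 reads in RC-MVs and an interval of its ratio from 0.0402 to 1.35. In GC-MVs against GC-cells 0 of the 7 differed by 2-fold, against 57.3% of all miRNAs. The median log2 ratio of the 7 was 0.04, against 0.13 over all. There miR-16-5p was 1.31-fold lower (1.18 to 1.46), miR-194-5p 1.91-fold (1.28 to 2.96) and miR-107-3p 1.67-fold (1.21 to 2.36). In turn, miR-143-3p was 1.56-fold higher (1.56 to 1.57) and miR-145-5p 1.26-fold (1.23 to 1.30). In RC-MVs miR-145-5p was 1.90-fold higher (1.85 to 1.96). The miR-34 guide arms, in contrast, were over 2-fold lower in both zones. Between RC-cells and GC-cells 0 of the 7 differed by 2-fold, against 19.4% of all miRNAs. Between RC-MVs and GC-MVs 5 of 7 were at least 2-fold lower in RC-MVs and 0 higher, against 14.6% lower and 24.7% higher among all. The median log2 ratio of the list was -1.17, against 0.15 over all miRNAs. The interval of 1 of the 5 included 1, that of miR-200c-3p with 2 and 4 reads.

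All libraries came from passage 4, so that no earlier or later passage, no freshly isolated cartilage and no measure of p53 or senescence was available for comparison. A list of miRNAs linked to cellular senescence was read in the same way. By name, 11 of its 12 members were matched in the table. The list was not split by whether a member rises or falls in senescence, so its counts and medians carry no senescence direction. Of 10 with reads in both RC-MVs and RC-cells, 1 was at least 2-fold higher and 4 lower, against 33.6% higher and 30.4% lower among all miRNAs, with a median log2 ratio of -0.70. Of 11 in GC-MVs and GC-cells, 3 were higher and 1 lower, with a median of 0.26, against 32.1% higher and 25.2% lower among all. The one that was at least 2-fold lower in both zones was miR-20a-5p. It was 10.3-fold lower in RC-MVs (5.83 to 19.9) and 5.01-fold lower in GC-MVs (3.29 to 8.04). The one that was at least 2-fold higher in both with more than 3 reads was miR-22-3p. Its ratios were 9.10 in RC-MVs (9.04 to 9.16) and 7.64 in GC-MVs (7.59 to 7.69). Of the other listed members of the miR-17-92 cluster, to which miR-20a-5p belongs, neither was lower in both zones, as miR-17-5p was 2.30-fold lower in RC-MVs (1.70 to 3.19) and had a ratio of 1.20 in GC-MVs (0.955 to 1.49), and miR-19b-3p was 1.41-fold lower in RC-MVs (1.14 to 1.77) and 1.62-fold higher in GC-MVs (1.31 to 1.98). The secretory phenotype miRNA miR-146a-5p had ratios of 1.06 (0.997 to 1.12) and 1.14 (1.08 to 1.21). Between RC-cells and GC-cells 0 of 10 differed by 2-fold, against 19.4% of all miRNAs. Between RC-MVs and GC-MVs 7 of 11 were at least 2-fold lower in RC-MVs and 0 higher, against 14.6% lower and 24.7% higher among all. The median log2 ratio of the list was -1.05, against 0.15 over all miRNAs. The intervals of 3 of the 7 included 1, those of miR-217-5p with 1 and 2 reads, miR-29c with 5 and 9 reads (ratio 0.492, from 0.130 to 1.64) and miR-20a-5p with 12 and 22 reads (ratio 0.483, from 0.218 to 1.02).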

How the data were processed

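Small RNA of 4 libraries was sequenced on an Illumina HiSeq. The authors aligned reads with Bowtie2 to Rnor_6.0 and used miARma-Seq to count them; the deposited values are raw read counts for each mature miRNA locus. Tool versions, read trimming and the treatment of reads matching several loci are not given in the sources used here. Counts of loci with the same name were added, which turned 774 loci into 740 names, each counted in all 4 libraries. The gains of the minor arm over all precursors were taken from the counts of each gene's own loci, without this addition. Counts were divided by all miRNA reads of the library (982543 to 7414467), as in the study's methods. Shares have Wilson intervals, ratios exact Clopper-Pearson intervals, and ratios of ratios normal intervals on the log scale, all at the 95% level. A difference was called at 2-fold with at least 1 read in both libraries; a fold against 0 reads was set against 3 reads. Intervals and 2-fold calls were checked on simulated counts, and no result of that check is given here.

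Besides all miR-34 products, the named miRNAs were the 5 nearest in pattern to each guide arm and members of fixed lists (same seed, p53-linked, senescence-linked, and markers of chondrocytes, blood and multiciliated epithelium, the last being miR-449a-5p, miR-449c-5p, miR-34b-5p and miR-34c-5p). The members and lists were chosen with earlier results of these data known. List members without an exact name were matched without arm suffix. The names miR-215 and miR-335 were listed without a suffix and were not looked for with one, so neither was analysed here. Alternatives were TMM normalization (edgeR 4.0.16), size factors (DESeq2 1.42.0), totals that exclude miR-143-3p, miR-22-3p and miR-21-5p, a pseudocount of 0.5, at least 10 reads in both libraries, and intervals wholly beyond 2-fold. Of the 740 names, 660 had a RefSeq sequence. Python 3.11.15, numpy 2.4.6, pandas 2.3.3, scipy 1.17.1, matplotlib 3.10.9 and R 4.3.3 were used.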

Additional observations from a re-analysis of the deposited data

Results flagged for a closer look

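The zone ratios of the guide arms lay on opposite sides of 1 in cells and in vesicles. This difference was not tested because each condition had 1 library. The percents in the resting zone over those in the growth zone were 1.19 in cells and 0.659 in vesicles for miR-34c-5p, 1.06 and 0.687 for miR-34b-5p, and 1.04 and 0.583 for miR-34a-5p. For miR-34a-5p the interval of the ratio in cells (0.972 to 1.11) included 1, so that its direction there was not clear. The directions in cells were below 1 for all 3 guide arms with TMM normalization, size factors and the total without the 3 abundant miRNAs, so that the opposite directions held only for percents of all miRNA reads and with the pseudocount.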

How the results depend on the processing

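Replicates could not be paired within a zone because the labels give no replicate numbers and each group holds 1 library. A fit of vesicles against cells with the zone as block was possible but was not run, since it would take the zones as replicates of each other. For the summed family, RC-MVs over RC-cells was 0.172 with a total that excludes miR-143-3p, miR-22-3p and miR-21-5p (0.199 as reported). GC-MVs over GC-cells was 0.269 with TMM normalization and 0.284 with size factors (0.314 as reported). RC-cells over GC-cells was 0.902 with TMM normalization, 0.889 with size factors and 0.913 without the abundant miRNAs (1.14 as reported), which turned its direction. RC-MVs over GC-MVs was 0.627, 0.607 and 0.466 in the same order (0.721 as reported), and the vesicle ratio of the growth zone over that of the resting zone was 1.96 without the abundant miRNAs (1.58 as reported). The scalings moved all log2 vesicle to cell ratios by -0.21 to -0.04 in the resting zone and by -0.22 to 0.10 in the growth zone. The vesicle to cell ratios of the guide arms stayed beyond 2-fold under each of these scalings, and arm ratios do not depend on scaling. The share of all miRNAs differing by 2-fold was 43.2% for vesicles against cells of the resting zone and 32.1% for those of the growth zone, 5.06% between the cells and 15.4% between the vesicles when the whole interval had to lie beyond 2-fold. With at least 10 reads it was 52.4% for GC-MVs against GC-cells and 13.2% between the cells. Depth limits the vesicles most, where the members had 0 to 273 reads.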
